A study of Macaca fascicularis and Macaca mulatta and Papio anubis with 20 samples.

Results

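Nicotinic acetylcholine receptor subunits were followed in spatial transcriptomes of dorsal root ganglia, where the cell bodies of sensory neurons lie next to the spinal cord, from non-human primates. The subunits were CHRNA3, CHRNA6, CHRNA7, CHRNB2 and CHRNB4, found by gene symbol. All 5 were found among the 21369 features of the sections labelled *Papio anubis*. In the sections labelled *Macaca fascicularis* (22000 features) and *Macaca mulatta* (20842 features) 4 of the 5 were found, and CHRNA7 was not analysed there. Visium captures the RNA of a section on barcoded spots of a slide and counts transcripts by unique molecular identifiers (UMIs), so that copies made in amplification count once. A spot can cover more than a single cell, and cells of more than a single type.

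Fresh frozen ganglia were cut at 10 µm with 100 µm between sections, and no agent or genetic change is named in the labels. The 16 *M. fascicularis* sections bear 4 specimen codes with 4 sections each: a female and a male of batch 1, and a female and a male of batch 2. Sections of 1 code were taken as 1 specimen, which the labels neither state nor exclude. The other sections, 2 labelled *M. mulatta* and 2 labelled *P. anubis*, bear 1 code per label, are all of batch 2, and have no labelled sex. The identifiers in the sections labelled *M. mulatta* carry the Ensembl prefix of *P. anubis* and the reverse holds for the sections labelled *P. anubis*, so these labels and files may be crossed.

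Nicotinic receptors are ion channels opened by acetylcholine and by nicotine, each built from a ring of subunits. CHRNA3 and CHRNB4 form the main receptor of autonomic ganglia, CHRNB2 pairs with several alpha subunits across the nervous system, CHRNA6 is best known from dopamine neurons and from sensory ganglia, and CHRNA7 can form a receptor alone. In sensory ganglia CHRNA3 is also used as a marker of silent nociceptors, fibres that answer mechanical force only after inflammation. In a reference gene table of *M. fascicularis* (RefSeq, used for names and neighbours only) CHRNA3 lies between CHRNA5 and CHRNB4, and CHRNA6 lies next to CHRNB3.

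The *M. fascicularis* sections held 1136433 to 7073134 UMIs under tissue, with a median of 398 to 5145 per spot. Levels are CPM, a gene's UMIs over all UMIs of the section scaled to 1000000, without a correction for transcript length, so different genes are not compared. The neuron list had 14 of 18 genes found and none at 0 in any *M. fascicularis* specimen, with a summed level of 21870 to 32430 CPM per section. The list for sympathetic neurons, the autonomic cells that also carry CHRNA3, summed to 1.17 to 5.591 CPM per section. P-values for sex and batch compare specimens and measure the spread among these 4. Those for classes of spots measure how a difference within specimens varied over the 4. P-values deposited by the authors are per section and do not compare specimens.

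CHRNA3 was the subunit with the most UMIs in *M. fascicularis*, 1906 in 1477 of 23974 tissue spots, and its highest section held 7.54 times the level of its lowest. In the female of batch 1 sections 1 to 4 stood at 36.65, 54.06, 12.01 and 15.08 CPM. In the male of batch 1 they stood at 47.21, 49.98, 16.41 and 15.41 CPM. Sections 1 and 2 were high and sections 3 and 4 low in both of these specimens, with no overlap. Over all genes passing the filter on low counts, the deviations of sections from their specimen's mean followed the same grouping between these specimens. Their correlation ran from 0.242 to 0.529 within sections 1 and 2 or within 3 and 4, and from -0.505 to -0.199 across. The deviations of a specimen's sections cancel out, so positive values within bring negative values across, which are not further evidence. The labels give a minimum of 2 sections per ganglion, so sections of 1 code may come from more than 1 ganglion. What the sections share was not tested. In the female of batch 2 sections 1 to 4 stood at 36.96, 9.802, 11.83 and 18.95 CPM. In the male of batch 2 they stood at 73.93, 59.88, 51.35 and 67.76 CPM. All 4 sections of this male were above every other section except section 2 of the batch 1 female, which was above the lowest of them.

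**Figure D1:**
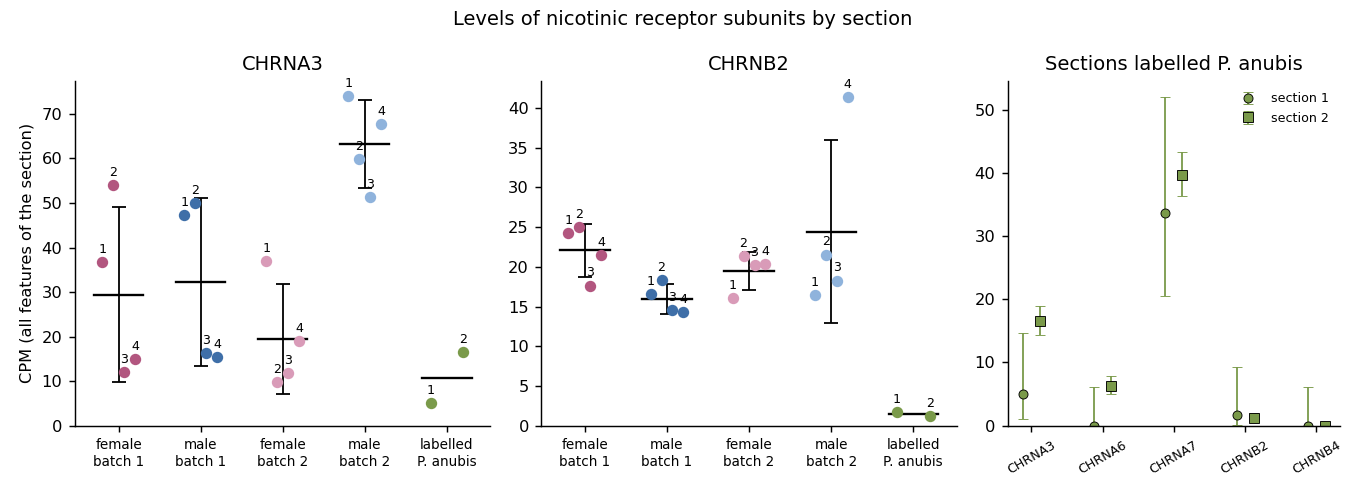
CPM of CHRNA3 (left) and CHRNB2 (middle) in each section, numbered, with the mean (line) and SD (bar) over the 4 sections of each *M. fascicularis* specimen and the mean alone over the 2 sections labelled *P. anubis*; the right panel gives all 5 subunits in the sections labelled *P. anubis* with exact 95% counting intervals. CHRNA3 lay between 51.35 and 73.93 CPM in the male of batch 2, and CHRNB2 between 14.28 and 25.04 CPM in all *M. fascicularis* sections but 1.

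Ordered by their means, the male of batch 2 had 63.23 CPM ± 9.787 (SD, n = 4 sections), the male of batch 1 32.25 ± 18.91, the female of batch 1 29.45 ± 19.73 and the female of batch 2 19.38 ± 12.35. The 3 lower specimens did not differ beyond the spread of their sections. Section 2 of the batch 1 female was its specimen's highest, and without it that specimen had 21.25 CPM ± 13.43 (n = 3).

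CHRNA3 was found in few spots, and mostly as single UMIs. Between 1.889% and 22.15% of a section's tissue spots held a CHRNA3 UMI, 278 spots of the *M. fascicularis* sections with a matrix held at least 2, and the most in 1 spot was 6. The highest share, 22.15%, was that of section 2 of the batch 1 female. Spots with a CHRNA3 UMI were deep: in that section their median was 13170 UMIs, against 2754 in the others. With every spot thinned to 1000 UMIs, which left out 10807 shallower spots, the share was 7.008% ± 1.781 in the male of batch 2 (SD, n = 3 sections). It was 2.996% ± 1.669 in the male of batch 1, 2.884% ± 2.478 in the female of batch 1 and 1.505% ± 0.8664 in the female of batch 2 (n = 4 sections each). The male of batch 2 was thus highest in CPM and in the thinned share, but not in the unthinned share. Its unthinned mean was 7.949% of tissue spots, below the female (9.014%) and the male (8.787%) of batch 1.

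CHRNB2 gave 1208 UMIs in 1068 spots, and most sections stood close together. Sections 1 to 4 held 24.23, 25.04, 17.64 and 21.47 CPM in the female of batch 1. They held 16.57, 18.38, 14.52 and 14.28 CPM in the male of batch 1. They held 16.04, 21.39, 20.28 and 20.31 CPM in the female of batch 2. In the male of batch 2 they held 16.46, 21.54, 18.27 and 41.36 CPM, and section 4 stood far above every other section. The specimen means were 22.09 ± 3.338, 15.94 ± 1.924, 19.5 ± 2.368 and 24.41 ± 11.49 CPM in that order, and the ranges of all 4 specimens overlapped.

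CHRNA6 and CHRNB4 were near the limit of detection. CHRNA6 gave 40 UMIs in 40 spots of 12 of the 16 sections, at 0 to 1.242 CPM per section. The male of batch 2 had 1 of these UMIs, against 12, 12 and 15 in the male of batch 1, the female of batch 1 and the female of batch 2. CHRNB4 gave 1 UMI among 63255489, in section 2 of the batch 1 female. The exact 95% upper limit of this count is 0.08808 CPM, by counting error alone. CHRNB4, the usual partner of CHRNA3 in autonomic ganglia, was thus not detectable beyond 1 UMI at this depth.

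The sections labelled *M. mulatta* held 0 UMIs of all 4 subunits found there, among 455037 UMIs in all, which allows up to 6.593 CPM. Levels of CHRNA6 and CHRNB4 like those in *M. fascicularis* would lie under that limit, and those of CHRNA3 and CHRNB2 above it. The sections labelled *M. mulatta* were shallow, with medians of 62 and 61 UMIs per spot. Their neuron list summed to 6998 and 16080 CPM, against 21870 to 32430 CPM per *M. fascicularis* section. Their fibroblast list summed to 12010 and 22180 CPM, against 1228 to 7113 CPM. The part of this composition, or of the different feature set, in the absent UMIs was not tested. The sections labelled *P. anubis* were unequal in depth, with 595020 UMIs in section 1 and 12595205 in section 2. CHRNA7 had the most UMIs of the 5 there: 20 in section 1 and 500 in section 2, or 33.61 CPM (exact 95% interval 20.53 to 51.91) and 39.7 CPM (36.29 to 43.33). The intervals overlapped, and up to 15 CHRNA7 UMIs lay in 1 spot. CHRNA3 had 3 and 209 UMIs (5.042 and 16.59 CPM), and CHRNA6 0 and 80 (6.352 CPM in section 2). CHRNB2 had 1 and 16 UMIs (1.681 and 1.27 CPM), and CHRNB4 had 0 in both. With 1 specimen code there is no test against *M. fascicularis*. CHRNB2 was below every *M. fascicularis* section in both, and CHRNA6 in section 2 was above all of them. Over the 13102 genes shared by symbol CHRNB2 had a mean of 2.702 CPM in the sections labelled *P. anubis* and 31.91 CPM in *M. fascicularis*. The shared genes change the total only, and the UMIs were counted over different feature sets. Species, specimen and feature set cannot be told apart in these gaps.

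Between the sexes, no subunit passed the test among the 3 with enough counts (CHRNA3, CHRNA6 and CHRNB2), where 0% of 12650 genes passed at an adjusted p under 0.05 (edgeR quasi-likelihood test over specimen sums, n = 2 each, Benjamini-Hochberg over all genes). At an unadjusted p under 0.05 this test gave 169 genes, and DESeq2 and limma-voom also passed 0 after adjustment, with 179 and 238 unadjusted. With 4 specimens fitted by sex and batch the test had little room to call any gene. A subunit that did not pass is therefore not shown to be equal between the sexes. CHRNA3 was at 22.39 CPM ± 5.107 in the females and 47.31 ± 24.08 in the males, a log2 difference of -0.92 (SE 0.34, unadjusted p = 0.0269, edgeR adjusted p = 0.998). The difference rested on batch 2. Within batch 1 the female and male stood at 26.0 and 30.28 CPM over their pooled sections, and within batch 2 at 18.77 and 64.33 CPM. CHRNB2 differed by 0.22 on the log2 scale (SE 0.28) and CHRNA6 by 1.01 (SE 0.80).

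Between the batches, which held different specimens and different Space Ranger versions that cannot be told apart, 0 of these 3 subunits passed, against 2.88% of all genes tested (1.26% higher and 1.61% lower). That share came from 364 genes, and from 115 to 942 when 1 section was left out (115 without section 1 of the batch 2 male, 942 without section 4 of the batch 1 female). The log2 difference of batch 2 over batch 1 was 0.43 for CHRNA3 (SE 0.34, edgeR adjusted p = 0.551) and 0.28 for CHRNB2 (SE 0.28, adjusted p = 0.635). For CHRNA3 the same difference was -0.47 between the female specimens and 1.09 between the males, in values of pooled sections. Markers of other cells differed with batch, mostly those of fibroblasts: 5 of 8 tested fibroblast genes were lower in batch 2. Also lower were 2 of 8 Schwann, 1 of 8 satellite glia and 1 of 5 smooth muscle genes. Of 9 macrophage genes 1 was higher and 1 lower, and of 4 adipocyte genes 1 was higher. None of 14 neuron or 5 endothelial genes passed. Of the other pathway genes, BCHE, an enzyme that breaks down acetylcholine, was the one that fell, by 1.85 (SE 0.28, edgeR adjusted p = 0.0181), from 38.87 CPM ± 8.041 in batch 1 to 10.18 ± 4.331 (n = 2 each). Without section 1 of the batch 2 male its adjusted p was 0.0519.

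The authors also deposited Moran's I, which scores per section whether a gene's levels in adjacent spots resemble each other. For CHRNA3 their adjusted p was under 0.05 in 5 of 16 *M. fascicularis* sections, where 16.2% of all gene and section pairs passed. The highest score, 0.118, was in section 2 of the batch 1 female (adjusted p listed as 0), where 40.6% of genes passed. The other 4 were section 4 of that female (0.0219), sections 2 and 3 of the batch 1 male (0.0501 and 0.0281) and section 1 of the batch 2 male (0.0266), none of them reaching 0.1. For CHRNB2 1 section passed, again section 2 of the batch 1 female, at 0.0421 (the authors' adjusted p = 0.00621). CHRNA6 passed in 0 of the 12 sections in which it was scored. In section 2 labelled *P. anubis*, where 22.6% of genes passed, CHRNA3 passed at 0.0183 (adjusted p = 0.014) and CHRNA7 did not at 0.0147 (adjusted p = 0.0745). In section 1 labelled *P. anubis* 3.31% of genes passed and neither did.

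**Figure D2:**
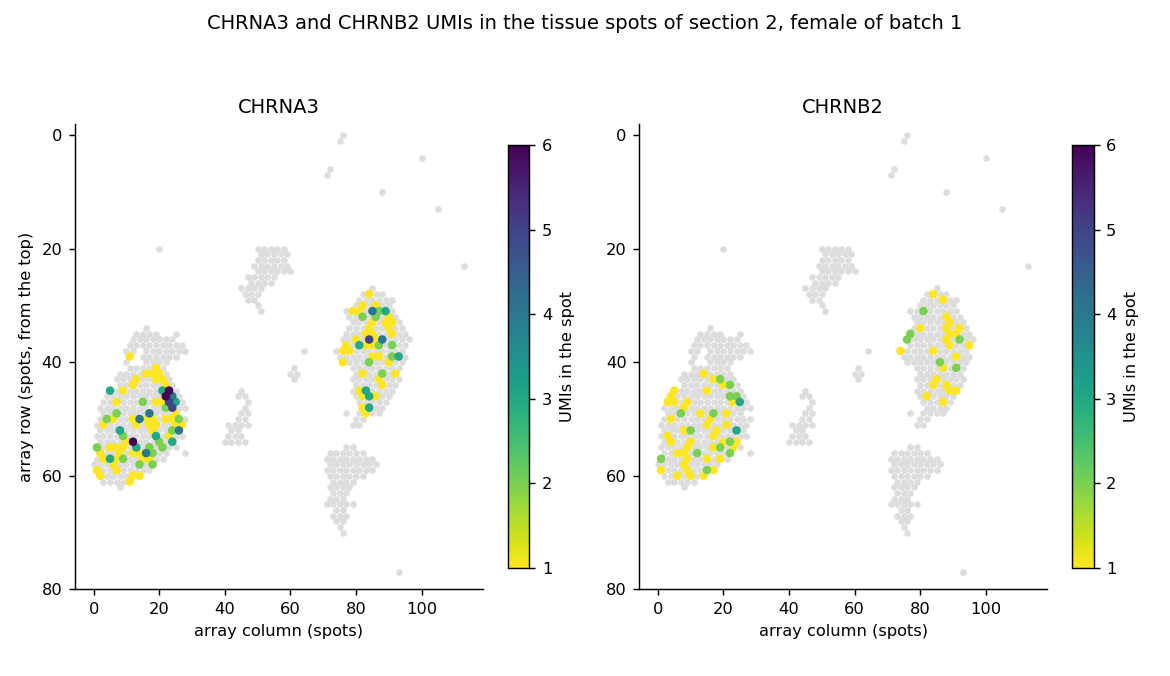
UMIs of CHRNA3 (left) and CHRNB2 (right) in the 596 tissue spots of section 2 of the batch 1 female, by array column and row; grey spots hold none. Both genes lie in the same pair of large tissue pieces, the other pieces hold grey spots, and the darkest CHRNA3 spots hold 6 UMIs.

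Whether the subunits were higher where neuron genes were high was asked by comparing the 25% of spots of each section with the highest summed share of the neuron list (neuron-high) with the rest, over spots with at least 200 UMIs. Of the 2 subunits with enough counts 1 was called, where 40.0% of 12064 genes passed, 18.1% higher and 21.9% lower. CHRNB2 was higher in neuron-high spots in all 4 specimens. It stood at 25.5 against 16.96 CPM in the female of batch 1, 22.16 against 16.57 in the female of batch 2, 17.13 against 14.5 in the male of batch 1 and 32.03 against 18.05 in the male of batch 2. The mean was 24.2 CPM ± 6.25 against 16.5 ± 1.49 (SD, n = 4), a log2 difference of 0.54 (SE 0.11, edgeR adjusted p = 9.3e-04). In the 25% of spots with the lowest share CHRNB2 was at 4.83 to 5.994 CPM in 3 specimens and at 16.5 CPM in the male of batch 2. More neurons in a spot and more RNA per neuron cannot be told apart in spots. The difference was not called without the specimen as a block (0.59, edgeR adjusted p = 0.25). That fit ignores that both classes come from the same specimens, and no gene at all was called in it.

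CHRNA3 did not pass with the full neuron list, and its direction depended on which neuron genes chose the spots. Its level in neuron-high and other spots was 25 and 27.09 CPM in the female of batch 1, 18.29 and 19.76 in the female of batch 2, 33.73 and 26.93 in the male of batch 1 and 62.58 and 71.95 in the male of batch 2. It was thus higher in 1 of 4 specimens. The log2 difference of the fit was 0.06 (SE 0.10, edgeR adjusted p = 0.692), or -0.09 without the male of batch 1. The fit scales the totals (TMM) and the CPM do not, so their signs can differ. When NEFL, NEFM and PRPH, which encode neurofilament subunits and peripherin, were left out of the list, CHRNA3 was higher in 4 of 4 specimens by 1.14-fold to 2.72-fold. The log2 difference was then 0.88 (edgeR adjusted p = 4.5e-05). In the highest 10% of spots by the full list it fell by 0.56 (adjusted p = 0.00114) and in the highest 50% it rose by 0.74 (adjusted p = 0.00682). NEFH, the heavy neurofilament subunit of large myelinated neurons, was higher in neuron-high spots by 1.13 on the log2 scale (SE 0.08, adjusted p = 9.5e-08).

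**Figure D3:**
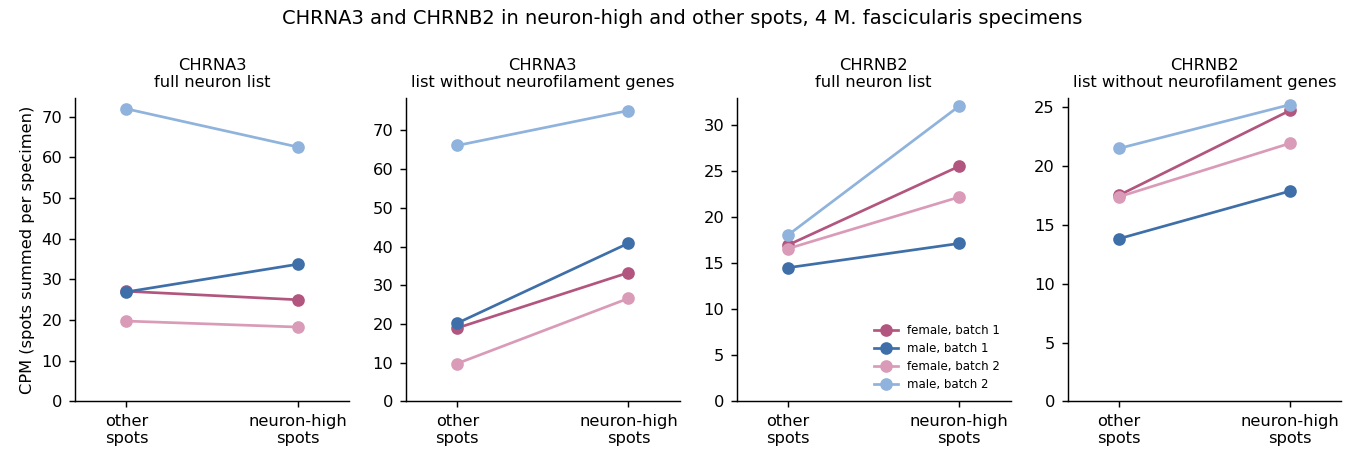
CPM of CHRNA3 and CHRNB2 in neuron-high and other spots, 1 line per *M. fascicularis* specimen, with the full neuron list and with the list without NEFL, NEFM and PRPH. The CHRNA3 lines cross direction with the full list (folds 0.870 to 1.252) and all rise without the neurofilament genes (1.14 to 2.72), whereas the CHRNB2 lines rise with both lists.

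Spots low in neuron genes held CHRNA3 mainly in 1 specimen. In the 25% of spots with the lowest neuron share it was at 9.99, 5.071 and 12.08 CPM in the female of batch 1, the female of batch 2 and the male of batch 1, and at 65.98 CPM in the male of batch 2. In that male 4.85% of such spots held a CHRNA3 UMI, as against 0.2553% to 1.199% in the others. Sorting spots by the other marker lists gave lower CHRNA3 in the 25% richest in fibroblast genes (0.462-fold to 0.780-fold over 4 specimens) and in smooth muscle genes (0.375-fold to 0.425-fold over 3 specimens). In Schwann-rich spots it was 0.391-fold to 0.990-fold, nearest to 1 in the male of batch 2. CHRNB2 was lower in fibroblast-rich and Schwann-rich spots in all 4 specimens, with median folds of 0.477 and 0.443. It was also lower in all 4 in macrophage-rich (0.6895-fold to 0.9257-fold) and satellite glia-rich spots (0.6812-fold to 0.95-fold). Smooth muscle-rich spots gave 0.498-fold to 0.6637-fold over 3 specimens. The adipocyte and endothelium lists each had 1 specimen above 1-fold. These folds are descriptions.

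Spots with at least 1 CHRNA3 UMI (CHRNA3-positive) differed from CHRNA3-free spots in many sensory neuron genes. CHRNA3 itself was left out of the test and of the totals. There were 1382 positive and 17212 free spots with at least 200 UMIs in the 15 *M. fascicularis* sections with a matrix. Positive spots were deeper, with medians of 2319 to 8209 UMIs over the 4 specimens, against 804.5 to 1800. Of a panel of 32 sensory genes, 28 were tested: 14 were higher and 4 lower, where 9.22% of 11042 genes were higher and 10.7% lower. The panel's median log2 difference was 0.343, beside -0.011 over all genes. The panel was chosen with earlier results of these data known, so these shares and medians describe it and do not test it. Markers of other cells moved with the split: 7 of 7 Schwann, 8 of 8 fibroblast and 5 of 5 smooth muscle genes tested were lower in positive spots, and of 14 neuron genes 7 were higher and 3 lower. Of the other marker genes tested, 4 of 5 endothelial, 2 of 9 macrophage, 2 of 4 adipocyte and 1 of 3 skeletal muscle genes were lower. Of 8 satellite glia genes 1 was higher and 2 lower. The sympathetic list had 1 gene tested, which did not pass, and the cholinergic list 1, SLC5A7, which was higher. Their part in the panel's differences was not tested.

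Within neuron-high spots alone, where 610 positive and 4045 free spots were compared, the panel gave 12 higher and 4 lower of 24 tested, where 8.28% of 9632 genes were higher and 9.18% lower. Its median was 0.309, beside -0.007 over all genes, with the same limit from the panel's choice. Of 14 neuron genes 7 were higher and 2 lower here. Lower were 5 of 7 fibroblast, 2 of 4 smooth muscle, 1 of 5 endothelial and 1 of 9 macrophage genes. Of 7 Schwann genes 1 was higher and 2 lower. Of 7 satellite glia genes 2 were higher, while the list's median was -0.2 and 3 of its genes lay above 0. The comparison shares spots with the one before. Against free spots of the same sections with the nearest UMI total, 8 panel genes were higher and 3 lower of 23, and with no specimen block 0 were called. Without any 1 specimen 9 to 12 panel genes were higher and 3 to 4 lower.

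SCN11A, a sodium channel of nociceptors, rose most clearly within neuron-high spots. Positive and free spots held 682.5 and 263.7 CPM in the female of batch 1, 294 and 131.9 in the female of batch 2, 962 and 380.7 in the male of batch 1 and 438.6 and 272 in the male of batch 2. Every specimen was higher in positive spots, with a log2 difference of 1.20 (SE 0.07, edgeR adjusted p = 2.6e-15). SST, the neuropeptide somatostatin, held 134.8 and 42.77, 189.4 and 59.42, 136 and 64.08 and 139.5 and 120.5 CPM in the same order of specimens, a log2 difference of 1.28 (SE 0.12, adjusted p = 1.1e-10). The gap was smallest in the male of batch 2. MRGPRX1, an itch receptor, held 25.96 and 9.244, 45.41 and 14.43, 36.39 and 14.4 and 26.99 and 6.942 CPM, and no positive value overlapped a free one (log2 difference 1.51, SE 0.15, edgeR adjusted p = 7.3e-10).

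Other receptors and peptides of nociceptors rose too, but not every one on the panel. SCN10A, P2RX3 and ADCYAP1, also on the panel, were not among the genes called, here or in all spots. OSMR, the receptor of oncostatin M, rose by 1.22 on the log2 scale, GFRA3, the artemin receptor, by 0.70, TRPA1, an irritant channel, by 0.94 and TRPV1, the capsaicin and heat channel, by 0.48. SCN9A rose by 0.46, CALCA, which encodes the peptide CGRP, by 0.41, RET, the signalling partner of the GFRA receptors, by 0.35, TAC1, the substance P precursor, by 0.32 and GFRA2 by 0.30. TRPA1 was at 5.72 CPM ± 7.95 against 3.61 ± 3.08 (n = 4), higher in 3 of 4 specimens and near the threshold (edgeR adjusted p = 0.0465). Leaving out any of 8 sections of 3 specimens ended the TRPA1 call, with an adjusted p up to 0.4, and so did 4 of the 9 other alternatives in which it was tested. The GFRA2 and SCN9A calls each ended under 6 of 13 such alternatives, among them DESeq2 and the nearest UMI total, and the GFRA2 call also without section 1 of the batch 2 female (adjusted p = 0.139). The OSMR call ended against spots of the nearest UMI total (adjusted p = 0.276). In all spots MRGPRX4 (1.31) and NPPB (0.82) rose too. The NPPB call ended in 8 of 15 fits without 1 section (adjusted p up to 0.0882) and under 8 of 14 other alternatives, and the MRGPRX4 call under 2 of these 14.

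PVALB, the calcium-binding protein of proprioceptors, fell within neuron-high spots. Positive and free spots held 233.1 and 594.1 CPM in the female of batch 1, 371 and 618.8 in the female of batch 2, 323.2 and 801.9 in the male of batch 1 and 168.7 and 387.5 in the male of batch 2. The log2 difference was -1.15 (SE 0.07, edgeR adjusted p = 1.8e-14), and no positive value reached the lowest free one. NEFH held 5379 and 11100, 3824 and 7588, 4405 and 9085 and 2366 and 3935 CPM, lower in 4 of 4 (log2 difference -0.98, SE 0.05, adjusted p = 4.9e-17). SPP1 fell by 0.86 and PENK, the enkephalin precursor, by 1.02 (edgeR adjusted p = 0.0267). In all spots NTRK3, a receptor of large sensory neurons, fell by 1.38, near the threshold (adjusted p up to 0.0642 when 1 section of batch 1 was left out). The PENK call was lost under 7 of the 10 alternatives in which it was tested, and without section 2 or 4 of the batch 1 female, section 4 of the batch 1 male, or section 1 or 4 of the batch 2 female (adjusted p up to 0.169). PIEZO2, the touch channel, and TRPM8, the cold channel, did not pass, at -0.10 (SE 0.11) and 0.11 (SE 0.32).

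**Figure D4:**
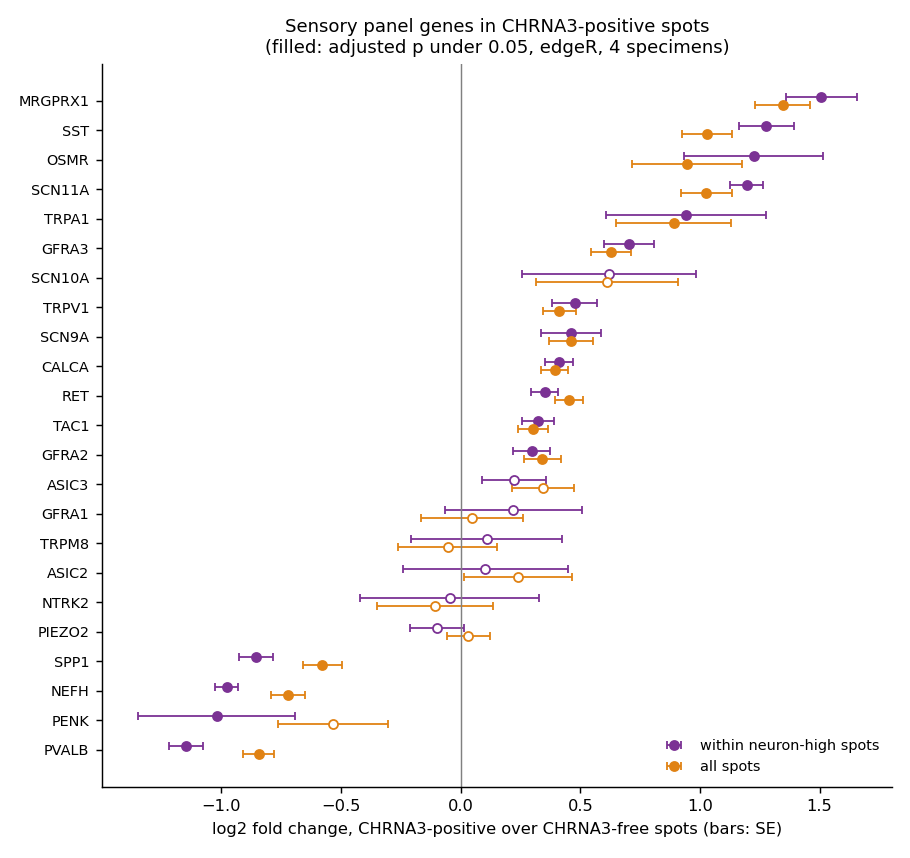
Log2 fold change (points) and SE (bars) of 23 of the 24 sensory panel genes tested within neuron-high spots, CHRNA3-positive over CHRNA3-free spots, within neuron-high spots and in all spots; filled points passed at an adjusted p under 0.05. MRGPRX1, SST, OSMR and SCN11A stand highest within neuron-high spots, and PVALB lowest at -1.15.

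A larger share of CHRNA3-positive than of CHRNA3-free spots held a CHRNB2 UMI in every specimen, and no difference in CHRNB2 level passed the test. In *M. fascicularis* 178 of 1382 positive spots held a CHRNB2 UMI and 853 of 17212 free spots. Averaged over sections and then specimens the shares were 13.02% and 5.342%, a difference of 7.68 percentage points (SD 2.25, n = 4), higher in 4 of 4 specimens and in 15 of 15 sections. By specimen, the shares in positive and free spots were 17.12% and 7.535% in the female of batch 1, 14.32% and 4.957% in the female of batch 2, 11.77% and 4.843% in the male of batch 1 and 8.859% and 4.034% in the male of batch 2. The exact permutation p over specimens was 0.12, the smallest that 4 specimens allow.

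A share of spots depends on depth, and positive spots were deeper. With all spots thinned to 1000 UMIs, spots were classed anew by the CHRNA3 UMIs left. Free spots then include those whose CHRNA3 UMIs were thinned away. In these classes 6 of 332 positive and 175 of 10758 free spots held CHRNB2. The difference was -0.0325 points (SD 1.73, higher in 2 of 4, exact p = 1), so no difference was detectable between these classes at equal depth. The 332 thinned positive spots bound it only loosely: the specimens ran from -1.64 to 1.89 points. CHRNB2 stood at 20.7 CPM ± 3.29 in positive and 19.6 ± 3.04 in free spots, a log2 difference of 0.11 (SE 0.12, edgeR adjusted p = 0.587), and -0.11 against free spots of the nearest UMI total. Within neuron-high spots it was 23.5 ± 5.73 against 24.4 ± 6.92 CPM. The fit, with its scaled totals, gave a log2 difference of 0.0044 (SE 0.15, edgeR adjusted p = 0.994). Leaving out 1 section moved this value between -0.07 and 0.10.

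**Figure D5:**
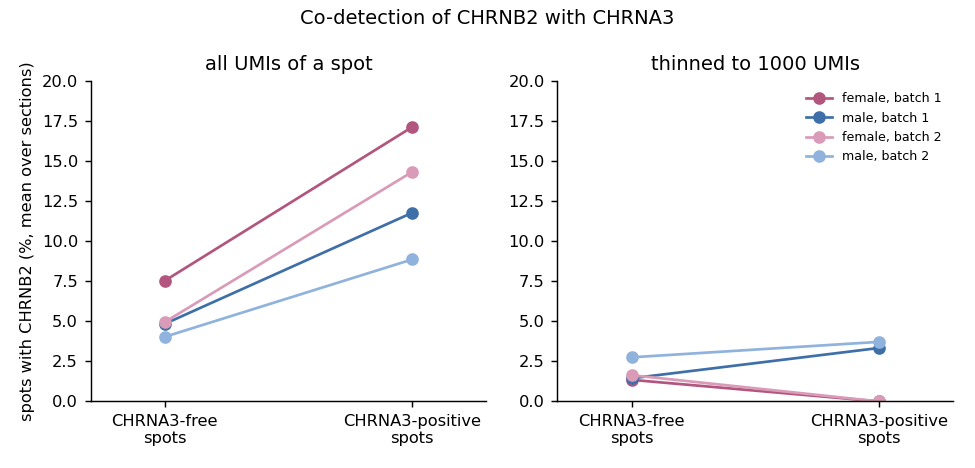
Share of CHRNA3-free and CHRNA3-positive spots with a CHRNB2 UMI (%), mean over the sections of each *M. fascicularis* specimen, with all UMIs (left) and thinned to 1000 UMIs per spot (right). On the right spots were classed by their CHRNA3 UMIs after thinning. All 4 lines rise on the left, from a mean of 5.342% to 13.02%, and on the right 2 rise and 2 fall to 0.

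CHRNA6 shared a spot with CHRNA3 in 9 of 1382 positive spots, and lay in 31 of 17212 free spots. The difference was 0.494 points (SD 0.817, higher in 2 of 4 specimens, exact p = 0.5). Thinned to 1000 UMIs it was in 0 of 332 and 5 of 10758. CHRNB4 shared no spot with CHRNA3: its single UMI lay in a CHRNA3-free spot.

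In the sections labelled *P. anubis* CHRNA7 was at 53.22 CPM in neuron-high spots (exact 95% interval 47.95 to 58.9) and 24.22 CPM in the others (20.42 to 28.51), with 26.02 CPM in the spots lowest in neuron genes. Without NEFL, NEFM and PRPH in the list the values were 49.73 and 27.23 CPM. CHRNA3 went the other way with the full list, 8.417 against 25.73 CPM, and stood at 17.4 against 15.03 CPM without the neurofilament genes. CHRNA6 was at 5.992 and 6.391 CPM. CHRNA7 lay in 38 of 161 CHRNA3-positive spots (23.6%) and 269 of 3158 free spots (8.518%), whose median depths were 5699 and 993.5 UMIs. Its level in them was 38.96 and 40.06 CPM, and thinned to 1000 UMIs it was in 3 of 28 and 44 of 1775 spots. Thinned to 500 UMIs it was in 0 of 20 and 42 of 2420, so the order of the shares changed with the depth. The intervals cover counting error only, nearly all of these UMIs are from section 2, and there is no test.

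The remaining pathway genes were grouped by role, in lists chosen with earlier results of these data known. Of 11 other nicotinic subunits 9 were found in *M. fascicularis* and 3 were tested. CHRNB1, the beta subunit of the muscle receptor, had specimen means of 12.73 to 26.21 CPM, CHRNB3 of 4.056 to 8.706 CPM and CHRNE of 3.626 to 8.691 CPM. CHRNA5, the third gene of the CHRNA3 cluster, had 0 to 7 UMIs per specimen, CHRNA4, the main partner of CHRNB2 in the brain, had 1 UMI in all, and CHRNA1, CHRNA2, CHRND and CHRNG were below 1 CPM in every section. In neuron-high spots 0 of the 3 passed. In CHRNA3-positive spots 1 passed: CHRNB1 was at 24.6 CPM ± 7.87 against 19.6 ± 5.27, a log2 difference of 0.35 (SE 0.11, edgeR adjusted p = 0.03, higher in 4 of 4). It was not called by DESeq2 (adjusted p = 0.262) or without either specimen of batch 1 (0.115 and 0.305). Leaving out 1 section ended the call in 4 of 15 fits: section 1 or 4 of the batch 1 male, section 3 of the batch 1 female, or section 1 of the batch 2 male (adjusted p 0.0513 to 0.0698).

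Of 15 assembly factors and modulators 12 were tested in neuron-high spots, 5 higher and 2 lower, where 18.1% of all genes were higher and 21.9% lower, with a median of 0.3 beside -0.026 for all genes. TMEM35A, the assembly chaperone of CHRNA7 known as NACHO, was higher at 156 CPM ± 24.0 against 105 ± 6.85 (log2 difference 0.64, SE 0.07, edgeR adjusted p = 6.6e-06, 4 of 4). VSNL1 (1.08), LYPD1 (0.98), TMIE (0.55) and PICALM (0.40) were higher, and RAPSN (-1.03), which anchors the muscle receptor, and CRELD2 (-0.40) lower. Without the neurofilament genes in the list VSNL1 and LYPD1 turned to -0.14 and -0.66. Of 15 alternatives other than leaving out 1 section, 6 ended the CRELD2 call, 5 more that of LYPD1, and 4 each those of TMIE and PICALM. In CHRNA3-positive spots PICALM was higher (0.45) and VSNL1 (-0.61), RAPSN (-0.90) and LY6H (-0.65) lower of 11 tested, where 9.22% of all genes were higher and 10.7% lower, with a median of -0.145. Of 14 such alternatives 5 ended the PICALM call, 4 that of RAPSN and 3 that of LY6H. Within neuron-high spots 0 were higher and 3 lower of 9, where 8.28% and 9.18% of all genes were, with a median of -0.093: LY6H, a membrane protein that restrains nicotinic receptors, by -1.07, VSNL1 by -0.97 and UNC50 by -0.31 (adjusted p up to 0.104 without 1 section, and lost under 7 of 13 other alternatives). TMEM35A did not pass there (-0.08, SE 0.07).

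Of 7 genes for making, moving and breaking down acetylcholine 4 were tested in neuron-high spots, where 18.1% of all genes were higher, and ACHE, acetylcholinesterase, was the 1 called higher, at 373 CPM ± 58.5 against 305 ± 61.3 (log2 difference 0.36, SE 0.08, edgeR adjusted p = 0.00179, 4 of 4). CHAT, the synthesising enzyme, had 1 UMI in all 4 specimens together. In CHRNA3-positive spots ACHE (0.30) and SLC5A7, the choline transporter, were higher and BCHE (-0.62) lower of 4, where 9.22% of all genes were higher and 10.7% lower. The BCHE call ended under 4 of 14 alternatives. SLC5A7 was at 2.83 CPM ± 1.97 against 0.875 ± 0.443, a log2 difference of 1.78 (SE 0.41, edgeR adjusted p = 0.00304, higher in 4 of 4), from 69 UMIs in all sections, and its adjusted p was 0.0991 for spots with at least 2 CHRNA3 UMIs. Within neuron-high spots ACHE was higher by 0.16 (edgeR adjusted p = 0.042, up to 0.109 without 1 section) and BCHE fell by 0.59 (adjusted p = 0.085 without section 2 of the batch 1 female). These calls ended under 8 and 5 of 13 other alternatives. Muscarinic receptors, the other class of acetylcholine receptor, summed to at most 0.2415 CPM per section and none was tested.

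The genes most like CHRNA3 and CHRNB2 were sought over 24 values, the level in the 25% of spots richest in each of 6 marker lists in each of 4 specimens, among 9254 genes. For CHRNA3 they were CD55, a complement regulator (Pearson r 0.968), SSBP3 (0.967) and SLC25A44 (0.959). For CHRNB2 they were ATP6V1H, a subunit of the vesicular proton pump (0.938), FAXC (0.936) and an unnamed feature, ENSMFAG00000003772 (0.925). The 24 values share specimens and spots, so the correlations are descriptions with no test. Over the 6 lists CHRNA3 was at 55.46 to 75.96 CPM in the male of batch 2 and at 10.13 to 33.73 CPM in the other specimens. A correlation over all specimens together thus does not separate likeness between specimens from likeness between spot sets.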

How the data were processed

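Visium UMI counts per gene and spot were deposited by the authors, and were made with Space Ranger 2.1.0 in 7 *M. fascicularis* sections of batch 2 and 2.0.0 in 12 others, per the file headers. Tables with Moran's I (a score) and its adjusted p-value per gene and section were also deposited. The submitters' processing notes also name Mmul_10, whose role is not given in the sources used here. Spots marked as under tissue were used. For 1 section of the batch 2 male (section 3) only the deposited table per gene was used, so its spots were not analysed here, nor was any clustering.

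Members and genes were matched by symbol. Features without a symbol held 18.7% to 24.3% of UMIs and stayed in the totals. Counts were summed per specimen, or per specimen and spot class (spots with at least 200 UMIs, 18594 of 21897 in *M. fascicularis*). They were tested with the edgeR 4.0.16 quasi-likelihood test (R 4.3.3, TMM, filterByExpr, Benjamini-Hochberg over all genes, adjusted p under 0.05), with sex and batch, or specimen and spot class, as terms. In spot-class tests n is the number of specimens, and both classes come from the same specimens. Shares were compared with a two-sided exact sign-flip permutation test over specimens (scipy 1.17.1). Thinned spots were classed as CHRNA3-positive or CHRNA3-free by their thinned counts. Scripts were tested on simulated data. Intervals are exact at 95%, limits for a count of 0 use 3 counts, and both cover counting error only. DESeq2 1.42.0, limma-voom 3.58.1, other filters, thresholds, lists and left-out sections or specimens were tried as alternatives. No 2 sections of a specimen agreed within sampling noise (lowest chi-square per degree of freedom 3.93 over 26 pairs).

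Named genes were the members, any gene of 4 pathway lists or of a sensory panel of 32 genes that passed a test, and the 3 most alike genes by Pearson r of log2(CPM + 1) per member with at least 500 UMIs. A further 11 lists of cell type markers were used. The members and lists were chosen with earlier results of these data known. The values of 1 panel gene are not reported here, and it stays in the counts.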

Additional observations from a re-analysis of the deposited data

Results flagged for a closer look

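Each value here is a sample whose gap to the nearest of the others of its group of 4 exceeded 0.829 of the group's range, Dixon's 95% critical value. Chance flags about 1 in 20 such groups, and 7 values stood out among 37 groups tested. In section 2 of the batch 1 female 22.15% of tissue spots held a CHRNA3 UMI, far above the other 3 sections of that female. The same section had the highest Moran's I of its specimen for both genes, 0.1178 for CHRNA3 and 0.04209 for CHRNB2. In the female of batch 2 section 2 stood apart for CHRNB2, with a Moran's I of 0.005816. Between specimens, the male of batch 1 stood above the other 3 in CHRNA3 of neuron-high over other spots, at 1.252-fold. Among neuron-high spots the share with a CHRNB2 UMI was 6.784 percentage points higher in CHRNA3-positive than in CHRNA3-free spots in the female of batch 1, apart from the other specimens. With spots thinned to 500 UMIs the male of batch 2 stood apart instead, at -2.276 points. That value came from 0 of 21 positive and 12 of 679 free spots, too few positive spots to give a direction.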

How the results depend on the processing

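Space Ranger version, batch and specimen cannot be told apart, and shallow sections limit what CHRNA6 and CHRNB4 can show. Where a value changed with a setting below, the cause was not tested. Section numbers did not pair the specimens throughout (correlation of same-numbered sections -0.0845 to 0.424, median 0.0169, 6 of 24 over 0.1). In batch 1 all 4 same-numbered pairs were over 0.1 (0.242 to 0.424), but so were sections 1 with 2 (0.404 and 0.428) and 3 with 4 (0.529 and 0.395). With sections as samples and the section number as a replicate block, 5 genes passed for sex and 4448 for batch, and with no replicate block 8 and 4345, against 0 and 364 over specimens. Without the filter on low counts 67 and 1279 passed. Leaving out 1 section gave 0 for sex and 115 to 942 for batch. Genes called numbered 4822 in neuron-high spots, 2204 in CHRNA3-positive spots and 1682 in CHRNA3-positive spots within neuron-high spots. In that order DESeq2 called 3032, 1067 and 788. Without the female of batch 1 the counts were 3031, 1131 and 963, and without the male of batch 1 3101, 1249 and 1034. Without the specimen block edgeR called 0 in each, with 1634, 636 and 611 at an unadjusted p under 0.05. This fit ignores that both classes come from the same specimens, and it ended the call of every gene tested in it. Against free spots of the nearest UMI total the last 2 counts were 1045 and 896, with 8 panel genes higher in each. In neuron-high spots the log2 difference of CHRNA3 was -0.030 without the specimen block, -0.10 with at least 1000 UMIs per spot, -0.092 without the male of batch 1, 0.88 without NEFL, NEFM and PRPH in the list, -0.56 in the highest 10% of spots and 0.74 in the highest 50%. CHRNB2 there was 0.59 without the specimen block and no longer called. With the shorter list VSNL1 was -0.14 and LYPD1 -0.66. CHRNB2 in CHRNA3-positive spots was -0.11 against spots of the nearest UMI total. Within neuron-high spots it was -0.0074 with DESeq2, -0.022 without the filter, -0.075 without the specimen block, -0.059 with the section as a block, -0.13 without the female of batch 1, -0.065 without the male of batch 1, -0.11 against spots of the nearest UMI total, and -0.073 to 0.10 without 1 section. The batch difference within females was -0.47 for CHRNA3, 0.11 for CHRNA6 and -0.10 for CHRNB2, and the sex difference of CHRNB2 within batch 2 was -0.13. Thinned to 1000 and 500 UMIs, the difference in shares was -0.0373 and -0.0227 points for CHRNA6 and -0.0325 and -0.167 for CHRNB2. Among neuron-high spots it was -1.31 for CHRNB2 at 500 UMIs, where 0 of 65 positive and 53 of 4257 free spots held CHRNB2. With so few positive spots a share of 0 gives no direction. Unthinned, the difference among neuron-high spots was 0.115 and 0.134 for CHRNA6 without the female or the male of batch 1. Over symbols shared by all sections the mean level was 31.91 CPM for CHRNB2 in *M. fascicularis*, and 19.92 for CHRNA3, 2.702 for CHRNB2 and 67.25 for CHRNA7 in the sections labelled *P. anubis*, where CHRNA7 was 41.49 over features with a symbol. With a Moran's I of at least 0.1 required, 1 section passed for CHRNA3 and 0 for CHRNB2.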
